A study of Mus musculus with 2 samples.

Results

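The prostaglandin and leukotriene pathway was described through 10 named genes of the 32285 in the feature tables: Ptgs1, Ptgs2, Ptges, Ptger2, Ptger4, Ptgir, Alox5, Alox5ap, Lta4h and Ltb4r1. They were taken by symbol, with earlier results of these data known, and all 10 were found once in both matrices. Leukocytes were sorted as live CD45+ cells from liver tumours of C57BL/6 mice, and their RNA was counted by droplet single-cell RNA sequencing with a 3′ kit. Tumour cells of the mouse liver cancer line RIL-175, labelled with luciferase, had been placed in the liver of mice kept on an MCD (methionine- and choline-deficient) diet, which produces a fatty liver. One group was fed Akk (Akkermansia muciniphila, a mucin-degrading gut bacterium, 5e9 colony-forming units) and is called AKK; the control group was given PBS by mouth. Feeding preceded the diet by 2 weeks and went on during it, implantation followed after 2 weeks of diet, and feeding of the bacterium paused for 6 days after surgery before it was resumed. Both groups therefore share the diet, the implanted line, the strain and the surgery. The series was made to study how the bacterium bears on innate immunity in the tumour. No source used here gives the age or sex of the mice or how many animals went into each library.

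Each group was 1 library, so no difference between AKK and PBS was tested and no spread between animals is known. After filters, 4646 PBS cells with 60339319 unique molecular identifiers (UMIs, each 1 counted RNA molecule) and 6177 AKK cells with 67889546 UMIs remained, with medians of 6747 and 6375 UMIs per cell. A level is given as CPM, the UMIs of a gene per 1000000 UMIs of all cells of a class in a library. Its bracketed range is the exact Poisson 95% interval, and the interval of an AKK over PBS ratio is the exact conditional binomial one; both cover counting error only. "Higher" and "lower" describe these 2 libraries. The cells fell into 17 classes named from marker genes. Where classes are put in order of level, the order is over classes with at least 20 cells in that library. Ptprc, the gene of CD45, had a UMI in 91.5% of PBS and 94.0% of AKK cells, at 1040 and 1385 CPM. In the 160 PBS and 117 AKK cells that carried tumour or epithelial markers despite the sort it was at 30.9 and 46.5 CPM. The libraries shared 8 barcodes.

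Prostaglandins and leukotrienes are lipid mediators made from arachidonic acid that phospholipases release from membranes. The cyclooxygenases COX-1 (Ptgs1, mostly constitutive) and COX-2 (Ptgs2, induced by inflammatory signals) make prostaglandin H2, which microsomal prostaglandin E synthase (Ptges) turns into prostaglandin E2. That product acts through receptors such as EP2 (Ptger2) and EP4 (Ptger4), and prostacyclin acts through IP (Ptgir). In the other branch, 5-lipoxygenase (Alox5) with its activating protein FLAP (Alox5ap) makes leukotriene A4, the hydrolase Lta4h makes leukotriene B4, and its high-affinity receptor BLT1 (Ltb4r1) draws neutrophils. Prostaglandin E2 from myeloid cells is known for damping lymphocyte and natural killer cell responses in tumours.

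The sequences upstream of Ptgs2 and Ptges are shown because Ptgs2 and Ptges, which act in turn in prostaglandin E2 synthesis, are 2 of the 5 genes past the fold in the monocyte-like cells described below. They are RefSeq promoters on GRCm38.p6, read 5′ to 3′ on the gene's strand, the 150 bases before the start in RefSeq. The Ptgs2 stretch lies at chr1:150099881-150100030 on the + strand and the Ptges stretch at chr2:30903298-30903447 on the - strand. The Ptges stretch lies inside the gene's GENCODE span (30889471 to 30929863), so RefSeq and GENCODE place its start differently. Capitals mark matches on either strand to 4 motifs chosen with the Ptgs2 sequence in view: a CRE half-site (TGACG), an E-box (CACGTG), a C/EBP-type motif (TTGCGNAA) and a GC box (GGGCGG).
Ptgs2: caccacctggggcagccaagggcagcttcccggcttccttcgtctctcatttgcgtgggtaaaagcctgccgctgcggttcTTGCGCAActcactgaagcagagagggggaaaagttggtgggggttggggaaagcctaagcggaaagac
Ptges: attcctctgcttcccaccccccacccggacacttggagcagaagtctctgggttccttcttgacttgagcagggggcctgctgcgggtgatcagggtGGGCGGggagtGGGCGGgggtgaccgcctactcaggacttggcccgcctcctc
A 30-base stretch just after the Ptgs2 start, chr1:150100036-150100065, held a CRE half-site and an E-box that overlap by 2 bases.
Ptgs2 after the start: caccactaCGTCACGTGgagtccgctttac
Promoter windows of 300 bases (250 before and 50 after the start) were found for 9 of the 10 genes, all but Alox5ap. Ptgs2 was the only 1 of the 9 with a C/EBP-type match (0.798% of 32851 RefSeq windows had one), a CRE half-site (20.8% of windows) or an E-box (7.15%). A GC box stood in 6 of the 9, against 35.7% of all windows. Because the 4 motifs were chosen with the Ptgs2 sequence in view, its holding them was fixed in advance, and these shares do not show it to be unusual. These are matches of letters and not measured binding.

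Ptgs2 was high in neutrophil-like and macrophage-like cells of both libraries and low in lymphocytes. In neutrophil-like cells its level was 1831 CPM (1807 to 1856) in PBS and 2370 CPM (2342 to 2398) in AKK. In macrophage-like cells it was 1636 CPM (1613 to 1660) in PBS and 1468 CPM (1443 to 1494) in AKK. Neutrophil-like cells stood above macrophage-like cells in both libraries. The Ptgs2 gene (ENSMUSG00000032487, chromosome 1, 150100031 to 150108227, + strand) overlapped no other annotated gene. By CPM, classical monocyte-like cells came next after macrophage-like cells in PBS, at 615.5 CPM. They ranked below the tumour/epithelial-like cells in AKK, at 301 CPM. Tumour/epithelial-like cells held 563 CPM in PBS and 544 CPM in AKK, with a ratio of 0.967 (0.9315 to 1.003). Conventional type 2 dendritic (cDC2-like) cells had 283 CPM in PBS and 161 CPM in AKK.

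The AKK library also held 37 basophil-like cells, with 2940 CPM of Ptgs2 (2743 to 3148), above its neutrophil-like cells. The PBS library had 1 such cell, so basophils could not be compared. In T-like, NK/ILC1-like and B-like cells (ILC1 are innate lymphoid cells akin to natural killer cells) the Ptgs2 level lay between 26.7 and 39.6 CPM. Free RNA in the droplets was gauged from S100a8 and S100a9 (neutrophil) and C1qa, C1qb and C1qc (macrophage) in each class. These T-like, NK/ILC1-like and B-like levels were 1.01 to 2.345 times that allowance and are read as background. Gamma-delta T-like cells held more, at 85.5 CPM in PBS and 109 CPM in AKK, 2.24 and 5.14 times the allowance.

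Shares of cells with a Ptgs2 UMI are given after neutrophil-like cells were thinned to 2228 UMIs each, without the shallower 178 PBS and 292 AKK cells. Intervals of shares are exact Clopper-Pearson 95% ones. The share was 71.8% in PBS (69.7 to 73.8%) and 78.6% in AKK (76.9 to 80.3%), and 82.0% and 84.25% unthinned. T-like cells, which should lack the gene, had 8.39% and 6.57% at the same depth. The median depths behind the unthinned shares were 4931 and 4148 UMIs in neutrophil-like and 9427 and 8883 in T-like cells. Both neutrophil-like shares were above this background.

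Ptgs1 was spread differently from Ptgs2. It was highest in mast-like cells of the PBS library (185 CPM, 137 to 244, 28 cells), then in macrophage-like cells (115 CPM in PBS and 71.5 in AKK), then in myeloid precursor-like cells (86.3 and 58.45 CPM). The 16 mast-like cells of AKK, too few for that order, had 191 CPM (135 to 262). Neutrophil-like cells had 34.1 and 30.4 CPM. In each library the intervals of macrophage-like and precursor-like cells did not overlap. Ptgs1 (chromosome 2, 36230426 to 36252272, + strand) is overlapped on the other strand by Gm43621, and whether counting used strand is not given, so its counts are uncertain to that extent. In thinned AKK macrophage-like cells, Ptgs1 was seen in 9.19% of the 381 cells with a Ptgs2 UMI (6.48 to 12.5%) and in 25.3% of the 150 without one (18.6 to 33.1%). In PBS the shares were 22.7% of 432 and 26.75% of 157 cells, whose intervals overlap.

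Ptges was highest in classical monocyte-like cells in PBS, at 55.8 CPM (48.4 to 64.1), and was 13.6 CPM (10.0 to 18.1) there in AKK. In AKK the 37 basophil-like cells had the highest level, 60.6 CPM, from only 17 UMIs. Plasma-like cells, the antibody-secreting cells, held 32.2 CPM in PBS and 33.9 CPM in AKK, 55.7 and 67.1 times the free-RNA allowance. In AKK plasma-like cells came next after basophil-like cells, and the intervals of these classes overlapped. In neutrophil-like cells Ptges was 27.8 and 23.9 CPM, and in macrophage-like cells 25.9 and 26.2 CPM. T-like, NK/ILC1-like and B-like cells held 1 to 3 Ptges UMIs in each library. Ptges (chromosome 2, 30889471 to 30929863, - strand) shares its strand with Gm13400, so reads of the pair cannot be told apart in every case.

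**Figure D1:**
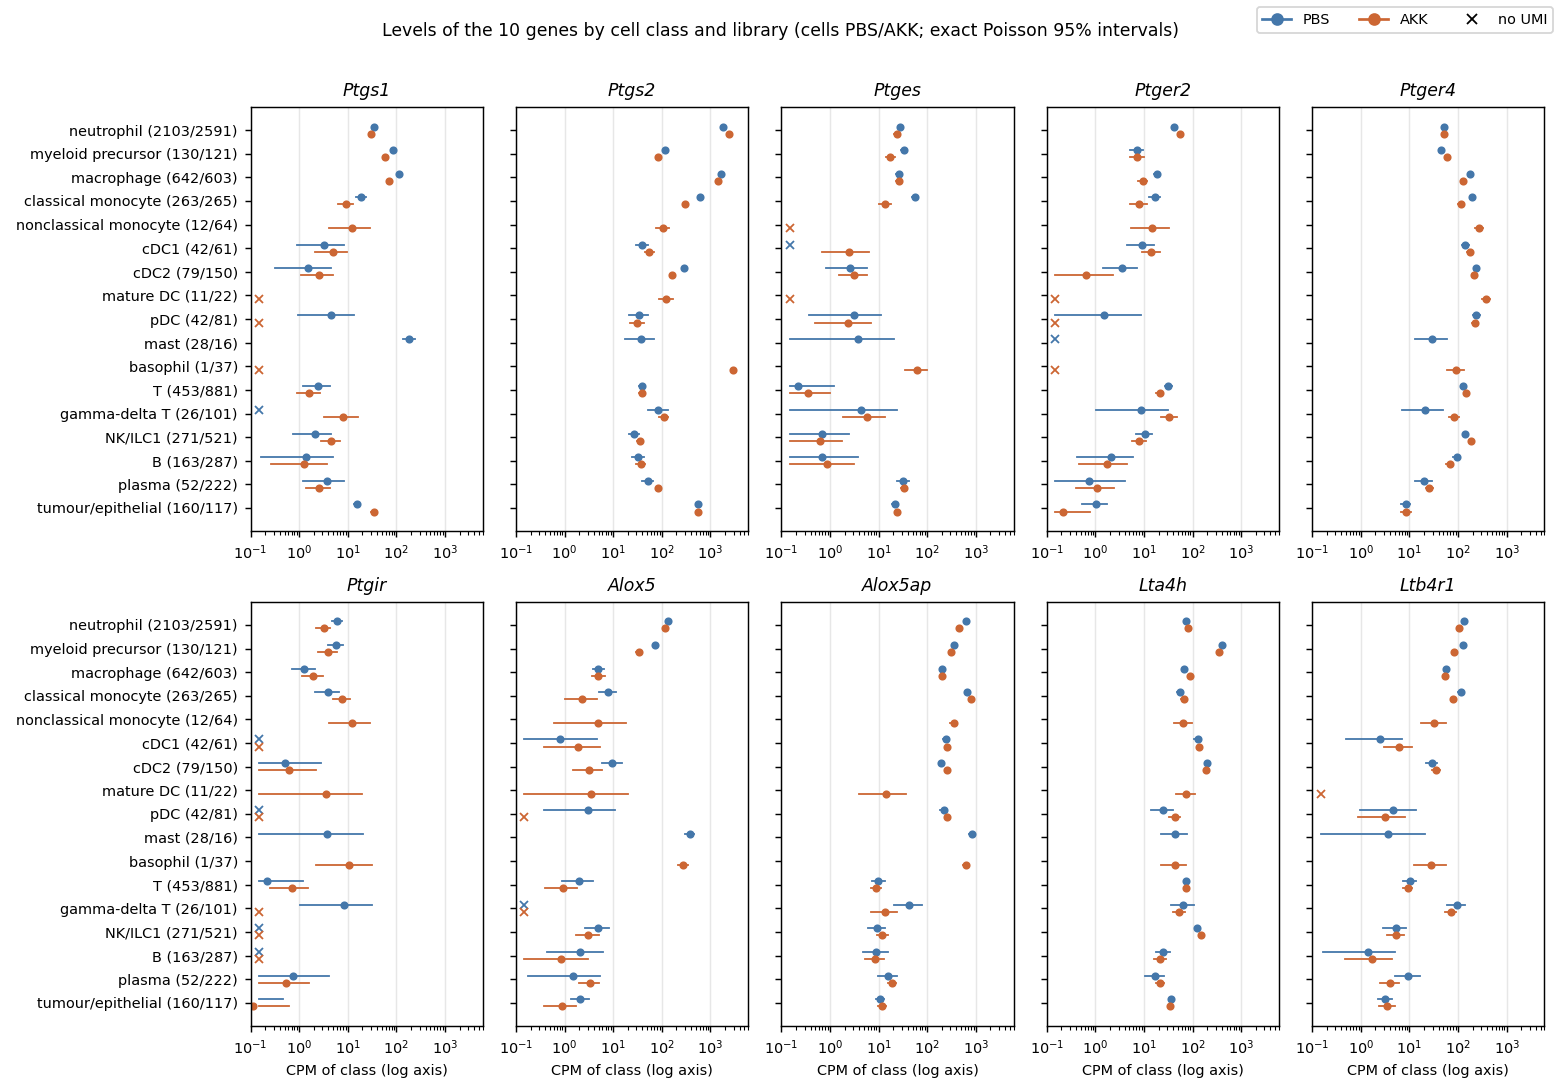
Levels of the 10 genes (CPM, log axis) in each class with at least 20 cells, PBS blue and AKK orange, with exact Poisson 95% intervals and crosses where no UMI was found. Ptgs2 is highest in neutrophil-like and macrophage-like cells and in the AKK basophil-like cells, and Ptger4 is spread across most leukocyte classes.

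The receptors for prostaglandin E2 had different patterns. Ptger4 was found in each leukocyte class, with 238 CPM in plasmacytoid dendritic (pDC-like) and 233 CPM in cDC2-like cells of PBS, and 221 and 214 CPM in AKK. The 22 mature dendritic-like cells of AKK had the highest level, 378 CPM (309 to 457), whose interval overlapped that of the nonclassical monocyte-like cells (267 CPM, 219 to 323). The 11 mature dendritic-like cells of PBS, too few for that order, had 408 CPM (344 to 480). Macrophage-like cells had 174 CPM in PBS and 127 in AKK, T-like cells 127 and 150 CPM, NK/ILC1-like cells 140 and 187.5 CPM, and neutrophil-like cells 52.3 and 51.9 CPM. Tumour/epithelial-like cells had 8.45 and 8.56 CPM. Ptger4 (chromosome 15, 5206661 to 5244187, - strand) overlaps Ttc33 and Gm15937 on the other strand.

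Ptger2 was highest in neutrophil-like cells, at 41.0 CPM in PBS (37.5 to 44.8) and 55.0 CPM in AKK (50.9 to 59.4). T-like cells came next in PBS, at 31.5 CPM (26.5 to 37.1), and had 21.03 CPM in AKK (18.1 to 24.3). These T-like levels were 77.6 and 52.6 times the allowance for free RNA, so they were not near background. Ptger2 (chromosome 14, 44988195 to 45003820, + strand) overlaps Gm49364 and Gm17173 on the other strand. Ptgir was sparse, with 146 PBS and 123 AKK UMIs in all cells, and lay between 1.28 and 7.54 CPM in neutrophil-like, macrophage-like, precursor-like and classical monocyte-like cells. No Ptgir UMI was seen in NK/ILC1-like or B-like cells, which allows up to 1.04 CPM in the PBS and 0.613 CPM in the AKK NK/ILC1-like cells, and 2.07 and 1.28 CPM in the B-like cells, by counting error (3 counts).

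In the leukotriene branch, Alox5 was led by mast-like cells in PBS (374 CPM, 304 to 454) and basophil-like cells in AKK (274 CPM, 217 to 343). Neutrophil-like cells followed, at 132 and 115 CPM, then precursor-like cells, at 71.6 and 34.4 CPM. The 16 mast-like cells of AKK, too few for that order, had 371 CPM (291 to 466). Macrophage-like cells held only 4.95 and 4.97 CPM, and the classical monocyte-like levels, 7.78 and 2.32 CPM, lay below the free-RNA allowance at 0.7025 and 0.536 times. Alox5ap reached more classes: 840 CPM in mast-like cells of PBS, 668 and 804 CPM in classical monocyte-like, 641 and 458 CPM in neutrophil-like and 204 and 200 CPM in macrophage-like cells. So the class with the most Alox5ap among the 3 large myeloid classes in AKK had Alox5 below that allowance. Any S100a8 and S100a9 RNA of the monocyte-like cells' own would raise the allowance and was not told apart from free RNA. Whether their Alox5 was only free RNA was not tested. Alox5ap (chromosome 5, 149264767 to 149288153) overlaps n-R5s180 and Gm19719 on the other strand. A shallow cluster (157 PBS and 21 AKK cells, median 679 UMIs, led by Retnlg, Retnla and Prg2) was not named. It made up most of the 168 PBS cells without a class, which had 161.5 CPM of Alox5 and 408 CPM of Alox5ap. The other 11 PBS cells came from a deeper cluster (median 12922 UMIs over both libraries) and were pooled in these levels. The levels therefore do not describe the shallow cluster alone.

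Lta4h was highest in myeloid precursor-like cells, at 407 CPM in PBS and 349 CPM in AKK, and next in cDC2-like cells, at 201 and 190 CPM. NK/ILC1-like cells had 124 and 146.5 CPM, and neutrophil-like cells 72.8 and 79.8 CPM. Ltb4r1 was 130 and 104 CPM in neutrophil-like cells, 129.5 and 82.3 CPM in precursor-like and 113 and 80.6 CPM in classical monocyte-like cells. The PBS intervals of these 3 classes overlapped from 1 to the next, so their order there was not resolved. T-like, NK/ILC1-like and B-like cells held 1.38 to 10.1 CPM of Ltb4r1. Gamma-delta T-like cells held more, at 94.05 CPM in PBS (26 cells) and 71.4 CPM in AKK (101 cells).

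Across the 8 classes that held 100 or more cells per library (16 profiles), Alox5ap and Ltb4r1 were the most alike pair of the 10 genes, with a Pearson r of 0.975. The profiles share libraries and differ in depth, so these values are a description. Of 10889 other genes, Basp1, Fmnl2 and Tnfaip2 were most like Ptgs2 (r of 0.987, 0.958 and 0.955). Gm46224, Osm and Msrb1 were most like Alox5ap (0.992, 0.991 and 0.990), and Mcemp1, Gm46224 and C3 most like Ltb4r1 (0.980, 0.974 and 0.973). Ptges was nearest to Gm49774, Plin2 and Prdx5 (0.953, 0.951 and 0.940), Ptgs1 to Gpi1, Tbc1d24 and Sel1l (0.931, 0.919 and 0.875), and Alox5 to Mgll, Chil1 and Mrgpra2b (0.979, 0.977 and 0.975). Ptger2 was nearest to Stx11, the overlapping Gm17173 and Plk3 (0.952, 0.940 and 0.930), Ptger4 to Otulinl, Laptm5 and Dock10 (0.932, 0.929 and 0.927), Ptgir to Dgkg, Nhsl2 and Hp (0.956, 0.950 and 0.946) and Lta4h to Paqr7, Ap3s1 and Cggbp1 (0.903, 0.900 and 0.890).

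Between the libraries, a gene was counted as past the fold when its AKK over PBS ratio was at least 1.5 in either direction with at least 50 UMIs over both libraries. Classical monocyte-like cells had the most of the 10 genes past it: 5 of the 8 measured were lower in AKK and none was higher, while 9.37% of all measured genes were lower and 15.2% higher there. Macrophage-like cells had 2 of 9 lower and none higher, against 7.07% lower and 7.45% higher of all genes. Neutrophil-like cells had 1 of 10 lower and none higher, against 4.47% and 8.29%. T-like (6 measured), NK/ILC1-like (5) and B-like cells (3) had none past the fold; the shares of all genes higher and lower were 4.48% and 6.43% in T-like, 5.85% and 6.86% in NK/ILC1-like, and 6.85% and 4.03% in B-like cells. The median log2 ratio of the measured members was -0.19 in neutrophil-like, -0.03 in macrophage-like, -0.92 in classical monocyte-like, -0.09 in T-like, 0.37 in NK/ILC1-like and -0.19 in B-like cells. Over all measured genes it was 0.07, 0.11, 0.17, -0.01, 0.02 and 0.05 in the same order. Because the 10 genes were chosen with earlier results of these data known, the counts and shares are a description only.

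Scaling by TMM factors (trimmed means of the gene ratios) in place of the class totals would shift every log2 ratio by -0.12 in classical monocyte-like and -0.11 in macrophage-like cells. Of all genes past the fold, the share that was higher in AKK went from 61.9% to 44.8% in classical monocyte-like, 51.3% to 34.8% in macrophage-like, 65.0% to 54.5% in neutrophil-like and 41.0% to 51.9% in T-like cells. Under that scaling 6 of the 8 genes measured in classical monocyte-like cells were lower past the fold. Of all 8333 genes measured there, 1007 were lower past it under that scaling, against 781 without it. The counts of the 10 genes in the other 5 classes were those given above.

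**Figure D2:**
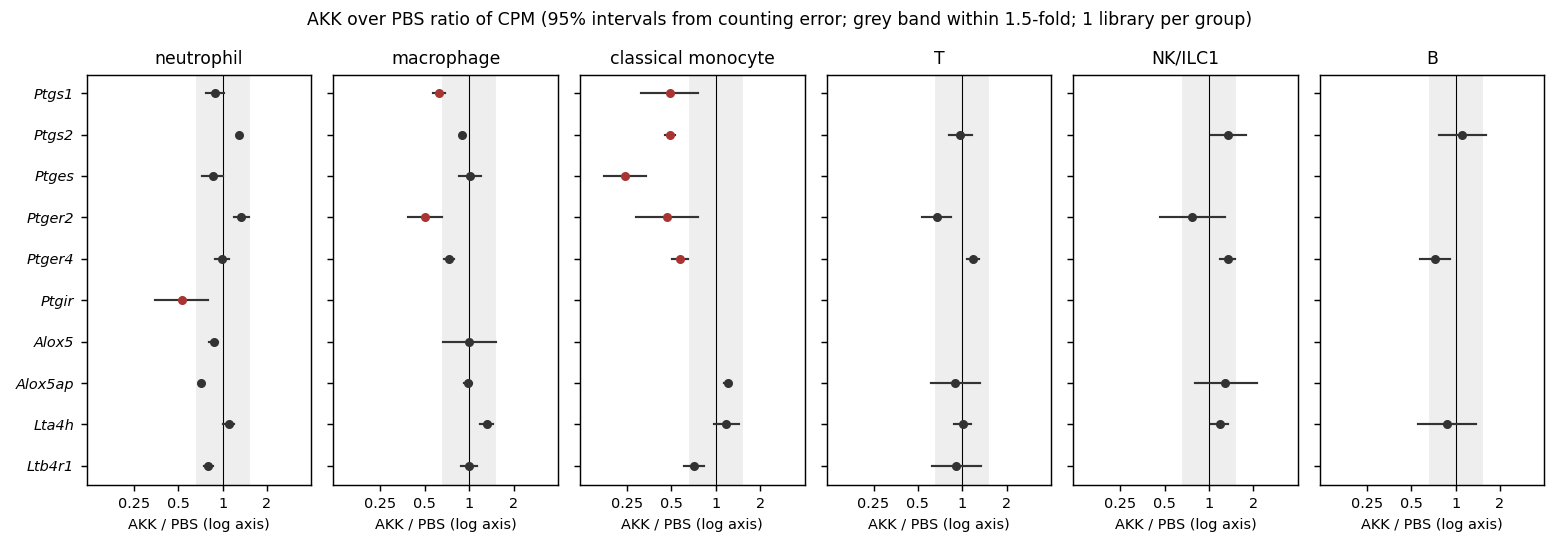
AKK over PBS ratio of each measured gene in 6 classes (log axis), with 95% intervals from counting error, red where the ratio is past 1.5-fold and the grey band within it. In classical monocyte-like cells 5 of 8 ratios lie left of the band.

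In classical monocyte-like cells (263 PBS and 265 AKK cells), the prostaglandin E2 branch was lower in AKK at the synthesis and the receptor steps. Ptges had 55.8 CPM in PBS and 13.6 CPM in AKK, a ratio of 0.244 (0.174 to 0.337). Ptgs2 had a ratio of 0.490 (0.454 to 0.527), and Ptgs1, with 18.9 and 9.28 CPM, one of 0.4915 (0.312 to 0.759). The receptors Ptger4 (198 and 113 CPM) and Ptger2 (16.7 and 7.83 CPM) had ratios of 0.572 (0.504 to 0.648) and 0.470 (0.287 to 0.752). Of the leukotriene genes, Alox5ap was higher in AKK at 1.203 (1.14 to 1.27) and Ltb4r1 lower at 0.715 (0.612 to 0.835), both within the fold, and Lta4h was at 1.18 (0.971 to 1.435). After thinning to 4337 UMIs (19 PBS and 34 AKK cells left out), Ptges was seen in 20.1% of PBS (15.2 to 25.7%) and 3.90% of AKK cells (1.80 to 7.27%). Ptgs2 was seen in 65.6% (59.25 to 71.5%) and 45.9% (39.3 to 52.55%). T-like cells at that depth had 0.2525% and 0.255% for Ptges and 15.15% and 11.9% for Ptgs2. Unthinned, the monocyte-like shares were 41.4% and 11.3% for Ptges and 80.6% and 63.0% for Ptgs2, at median depths of 11283 and 13125 UMIs.

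These monocyte-like differences moved with the make-up of the class. Cluster 7.0 held 190 of the AKK and 6 of the PBS cells, whereas most PBS cells lay in clusters 7.2 (102 PBS, 36 AKK) and 7.3 (155 PBS, 39 AKK). Cluster 7.0 had 215 CPM of Ptgs2 (197.5 to 234), 7.415 CPM of Ptges, 96.0 CPM of Ptger4 and 853.5 CPM of Alox5ap in AKK. Without it, an alternative added after seeing the data, the Ptgs2 ratio was 0.880 (0.796 to 0.971), Ptges 0.558 (0.362 to 0.831), Ptger4 0.811 (0.673 to 0.971), Ptgs1 0.5605 (0.245 to 1.13), Ptger2 0.6755 (0.308 to 1.33) and Alox5ap 0.988 (0.901 to 1.08). Then 2 of the 5 genes, Ptges and Ptgs1, were past the fold. Within cluster 7.3 Ptgs2 was 595 CPM in PBS and 614 CPM in AKK and Ptges 56.4 and 48.0 CPM, with overlapping intervals. Within cluster 7.2 Ptgs2 was 649 and 501 CPM and Ptges 56.9 and 18.4 CPM, whose intervals did not overlap.

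Other measures moved with the same comparison. The summed level of the neutrophil marker list in classical monocyte-like cells was 6456 CPM in PBS and 2521 CPM in AKK, with all 8 of its 8 markers seen in both. The median mitochondrial share of UMIs was 5.36% and 3.345%. The Ptgs2 levels were 4.01 and 3.37 times the free-RNA allowance, and those of Ptges 24.0 and 15.1 times. The part of these in the result was not tested.

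**Figure D3:**
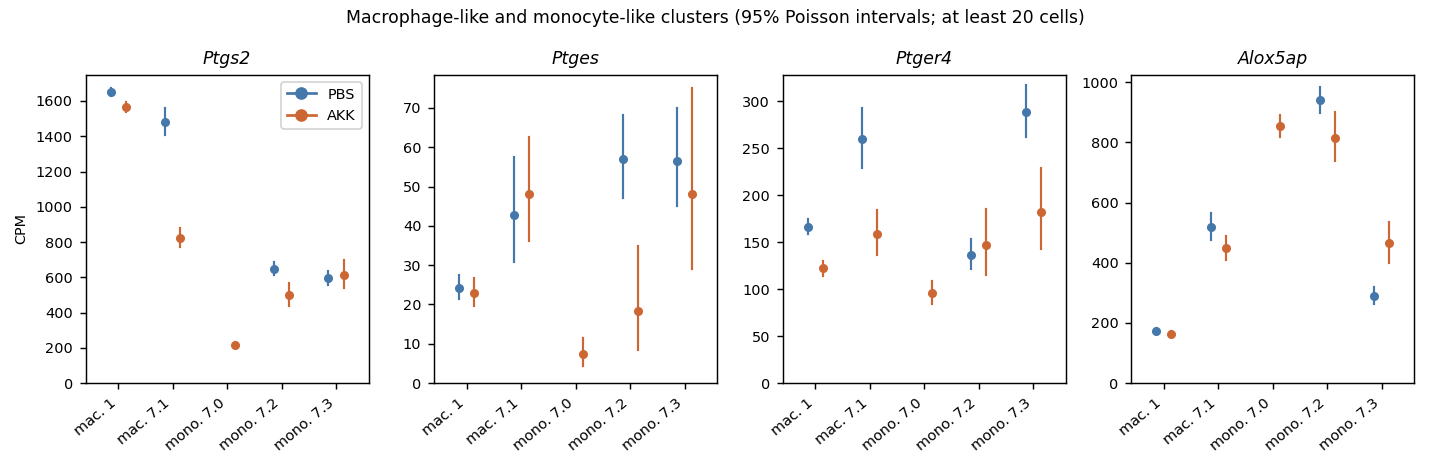
Levels (CPM, linear axis) of Ptgs2, Ptges, Ptger4 and Alox5ap in the macrophage-like clusters 1 and 7.1 and the monocyte-like clusters 7.0, 7.2 and 7.3, with 95% Poisson intervals, PBS blue and AKK orange. Cluster 7.0 has too few PBS cells to plot, and its AKK cells have the lowest Ptgs2 and Ptges of the 5 clusters.

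In macrophage-like cells (642 PBS and 603 AKK cells), Ptgs1 and Ptger2 were lower in AKK past the fold. Ptgs1 had a ratio of 0.623 (0.565 to 0.685), and Ptger2, at 18.5 and 9.36 CPM, one of 0.505 (0.386 to 0.655). With no doublets removed, or with classes from each cell's own marker score, the log2 ratio of Ptgs1 was -0.53, within the fold. Ptger4 was lower within the fold at 0.7285 (0.676 to 0.784), Ptgs2 at 0.897 (0.877 to 0.918), and Lta4h was higher at 1.315 (1.19 to 1.455). The intervals of Ptges, Alox5, Alox5ap and Ltb4r1 held 1, and Ptgir had too few UMIs to count. After thinning to 3451 UMIs (53 PBS and 72 AKK cells left out), Ptgs1 was seen in 23.8% of PBS (20.4 to 27.4%) and 13.75% of AKK cells (10.9 to 17.0%), and Ptgs2 in 73.3% and 71.75%. T-like cells had 0.725% and 0.741% for Ptgs1 at that depth. Unthinned, Ptgs1 was seen in 46.6% and 31.7% of macrophage-like cells, at median depths of 16608.5 and 12490 UMIs.

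The 2 macrophage-like clusters differed in Ptgs2. The large cluster 1 had 1651 CPM in PBS and 1565 CPM in AKK, and the small cluster 7.1 (67 PBS and 88 AKK cells) had 1482 and 824 CPM. Ptgs1 was lower in AKK in both, at 122 and 78.5 CPM in cluster 1 and 34.7 and 24.9 CPM in cluster 7.1. The platelet list, given because platelets are rich in COX-1, summed to 291 CPM in PBS and 297 CPM in AKK macrophage-like cells, with Gp9 and Gp1bb at 0 in both. The list of 18 genes induced by tissue dissociation had a median log2 ratio of -0.345, with 17 of 18 below a ratio of 1, and the macrophage marker list summed to 8949 and 5679 CPM. Their part in the result was not tested.

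In neutrophil-like cells (2103 PBS and 2591 AKK cells), Ptgs2 and Ptger2 were higher and Alox5ap, Ltb4r1 and Alox5 lower in AKK, all within the fold. Ptgs2 had a ratio of 1.29 (1.27 to 1.32) and Ptger2 one of 1.34 (1.19 to 1.51). Alox5ap was lower at 0.715 (0.691 to 0.741), Ltb4r1 at 0.802 (0.744 to 0.865) and Alox5 at 0.868 (0.807 to 0.934). Ptgir was the 1 gene past the fold, at 6.03 CPM (72 UMIs) in PBS and 3.20 CPM (38 UMIs) in AKK, a ratio of 0.530 (0.348 to 0.796). The intervals for Ptgs1, Ptges, Ptger4 and Lta4h held 1. The thinned share of cells with an Alox5ap UMI was 59.9% in PBS (57.7 to 62.1%) and 48.5% in AKK (46.5 to 50.6%), against 4.196% and 1.99% of T-like cells; unthinned it was 74.1% and 59.5%. The neutrophil marker list summed to 84720 CPM in PBS and 67960 CPM in AKK in these cells, and its part was not tested.

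The 6 neutrophil-like clusters spanned a wide range. Cluster 18, led by the granule genes Ngp and Camp, had the lowest Ptgs2, at 194 CPM in PBS and 170.5 CPM in AKK, and the highest Alox5ap, at 1152 and 925 CPM. Cluster 2 had 1392 and 1833 CPM of Ptgs2 and 773 and 641 CPM of Alox5ap. Clusters 3, 4, 5 and 6 held 2367 to 3382 CPM of Ptgs2 in PBS and 3080 to 3896 CPM in AKK. Ptgs2 was higher in AKK in clusters 2, 4, 5 and 6 and lower in cluster 3 (3382 and 3080 CPM), with intervals that did not overlap. Alox5ap was lower in AKK in all 6 clusters, for example 243 and 60.2 CPM in cluster 4 and 377 and 112 CPM in cluster 5; in cluster 3 (227.5 and 183 CPM) the intervals overlapped. Ptger2 was 30.9 CPM in PBS (21.55 to 43.0) and 159 CPM in AKK (136 to 185) in cluster 4, but 66.25 and 41.1 CPM in cluster 3, so its direction was not shared. Lta4h was highest in cluster 18, at 259 and 341 CPM, and Ptgs1 in cluster 3, at 81.25 and 91.1 CPM.

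**Figure D4:**
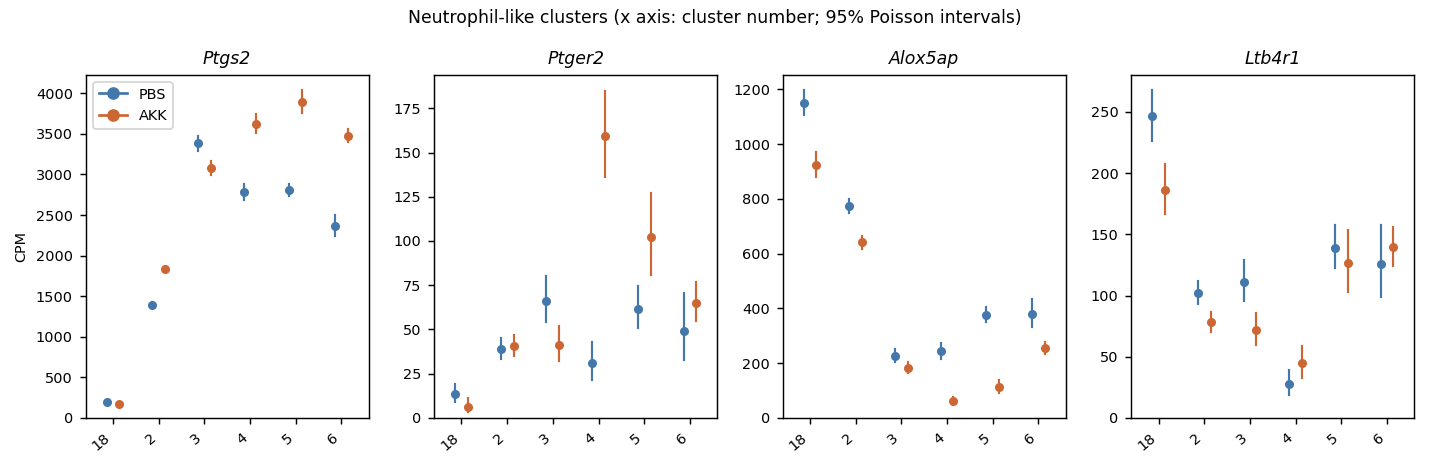
Levels (CPM, linear axis) of Ptgs2, Ptger2, Alox5ap and Ltb4r1 in the 6 neutrophil-like clusters, with 95% Poisson intervals, PBS blue and AKK orange. Ptgs2 is lowest and Alox5ap highest in cluster 18, and Alox5ap is lower in AKK in each of the 6.

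In T-like, NK/ILC1-like and B-like cells, Ptgs2, Alox5 and Alox5ap were at most 3.835 times the free-RNA allowance. Ptger4 had a ratio of 1.34 (1.19 to 1.51) in NK/ILC1-like and 1.18 (1.07 to 1.30) in T-like cells. In B-like cells its ratio was 0.723 (0.571 to 0.9165), at 93.35 CPM in PBS and 67.5 CPM in AKK. Ptger2 in T-like cells had a ratio of 0.668 (0.533 to 0.837), just inside the fold. Lta4h in NK/ILC1-like cells was at 1.18 (1.04 to 1.345).

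Outside the 6 classes counted, 2 more had over 100 cells in each library and were compared after the data were seen. The share of all genes past the fold was not computed for them, so their counts have no background here. In precursor-like cells 3 of the 10 measured genes were lower, and in tumour/epithelial-like cells 1 of 7 was higher. The median log2 ratio over all measured genes was 0.112 and 0.075. Myeloid precursor-like cells (130 PBS, 121 AKK) had lower Alox5 at 0.481 (0.401 to 0.574), Ptges at 0.524 (0.404 to 0.675) and Ltb4r1 at 0.6355 (0.563 to 0.717). Their neutrophil marker list summed to 66410 CPM in PBS and 29750 CPM in AKK, and Alox5 lay at 0.604 and 0.602 times the free-RNA allowance. Ltb4r1 lay at 1.11 and 1.585 times it and Ptges at 1.35 and 1.48 times. The allowance cannot gauge free RNA in this class, because S100a8 and S100a9 were among the leading genes of its cluster. Ptgs2 there was at 116.5 CPM in PBS, against an allowance of 1642 CPM. The part of free RNA and of the neutrophil markers in the result was not tested. In tumour/epithelial-like cells Ptgs1 was higher, at 15.45 CPM in PBS and 34.1 CPM in AKK, a ratio of 2.21 (1.83 to 2.67).

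The rest of the pathway was followed with 48 further genes in 7 lists. In macrophage-like cells 29 were measured, of which 7 were higher and 3 lower in AKK, against 7.45% and 7.07% of all measured genes. Alox15, a lipoxygenase of hydroxy fatty acid synthesis, was 1.02 CPM in PBS and 10.5 CPM in AKK, a ratio of 10.3 (5.60 to 20.6), and it lay mostly in cluster 7.1 (3.97 and 59.5 CPM). Hpgd, which inactivates prostaglandins, had 1.45 and 5.78 CPM, a ratio of 3.98 (2.26 to 7.36), and Ptgr1, which acts after it, 1.82 (1.40 to 2.38). Hpgds, the prostaglandin D synthase of blood cells, was lower, at 80.4 and 35.2 CPM, a ratio of 0.438 (0.384 to 0.499). Ptgis (prostacyclin synthase) at 1.84, Ggt5 at 1.64 and Gpr18 at 1.975 were higher, and Slco2a1, a prostaglandin transporter, at 0.507 was lower. Pla2g4c at 1.73 (0.9945 to 3.05) and Mgst2 at 0.6615 (0.378 to 1.125) were also past the fold, with intervals that held 1.

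In classical monocyte-like cells 17 of the 48 were measured, 2 higher and 5 lower, against 15.2% and 9.37% of all measured genes. Hpgd was 1.67 CPM (6 UMIs) in PBS and 33.9 CPM (117 UMIs) in AKK, a ratio of 20.4 (9.08 to 56.6). It was 40.2 CPM in cluster 7.0 and, within cluster 7.3 (155 PBS and 39 AKK cells), 2.02 CPM in PBS and 30.3 CPM in AKK. The part of the make-up of the class in this ratio was not tested. The list of cysteinyl leukotriene synthesis and export had 4 of its 5 measured members lower: Abcc1, an exporter, at 0.478 (0.407 to 0.559), Mgst2 at 0.3655, Dpep2 at 0.5115 and Ggt5 at 0.640 (0.342 to 1.17). Mgst3 was higher at 1.504 and the formyl peptide and lipoxin receptor Fpr2 lower at 0.619.

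In neutrophil-like cells 24 were measured, 2 higher and 3 lower, against 8.29% and 4.47% of all measured genes. Abcc4, a prostaglandin exporter, at 1.505 and Gpr18 at 2.36 were higher. Ggt1 at 0.502, Dpep2 at 0.621 and Cmklr1 at 0.607 were lower. T-like cells had 15 measured and 1 lower, against 6.43% of all genes. It was Cyp4f18, which breaks down leukotriene B4, at 0.662. NK/ILC1-like cells had 11 measured, 2 higher and 1 lower, against 5.85% and 6.86% of all genes. There the chemerin receptor Cmklr1 at 2.28 (1.64 to 3.23) and Mgst2 at 1.53 (0.900 to 2.71) were higher and Ggt5 at 0.521 lower. B-like cells had 8 measured and 1 higher, Mgst2 at 1.98, against 6.85% of all genes. Precursor-like cells had Fpr2 at 0.295, Ptger3 at 0.482 and Cmklr1 at 0.592 (0.337 to 1.01) lower and Cysltr1 at 1.80 and Cbr1 at 1.91 higher. Tumour/epithelial-like cells had Hpgd at 0.225 (6.33 and 1.43 CPM) and Fpr2 at 0.5415 lower and Ptgr1 at 1.665 higher. For precursor-like and tumour/epithelial-like cells, 20 and 18 list genes were measured, and the share of all genes past the fold was not computed.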

How the data were processed

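The deposited matrices hold raw UMI counts per gene and barcode, not normalized; Cell Ranger 7.1.0 wrote them per the file headers, while the submitters' processing notes name Cell Ranger 5.0.1 and mm10. No source used here says whether intronic reads were counted. The lowest totals were 500 (PBS) and 501 (AKK) UMIs, so barcodes had been filtered. Of 11698 barcodes (5088 PBS, 6610 AKK), those with at least 200 genes and under 15% mitochondrial UMIs were kept. The highest Scrublet scores, 0.8% per 1000 barcodes, were removed as doublets (187 PBS, 340 AKK); the automatic threshold marked 4 and 94 and was not used. Cells were clustered with scanpy 1.11.5 (2000 variable genes, 30 components, 15 neighbours, Leiden resolution 1.0) without the 76 genes of the described lists. Clusters were named X-like from 23 marker sets, with at least 3 markers detected.

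The 10 genes, lists and markers were chosen with earlier results of these data known. Several steps were added after the clusters had been seen: leaving shallow clusters whole, the 2 further classes, the monocyte-like alternative and the promoter motifs. UMIs were summed per class and library. With 1 library per group there was no test. Named are the 10 genes, list genes with at least 50 UMIs past 1.5-fold with an interval leaving out 1 (others past the fold were added after their values were seen), and the 3 most alike genes (Pearson r of log2 of CPM + 10, at least 500 UMIs). Thinning was to the 10th percentile of UMIs of each class. The free-RNA allowance is the level in the source class times the source markers' level ratio. Alternatives used TMM factors from edgeR 4.0.16, other cell filters, clusterings, weights and thresholds. The ratio and interval steps were tested on simulated counts. Coordinates are from GENCODE M21 on GRCm38, which held 32235 of the 32285 identifiers.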

Additional observations from a re-analysis of the deposited data

Results flagged for a closer look

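For 5 genes the AKK over PBS ratio was past 1.5-fold in opposite directions in different classes, with intervals that left out 1. The difference between classes was not tested. These genes were picked by that rule from the named genes and the further list genes over the classes compared. The share of all genes that meet the same rule was not computed, so the count of 5 has no background here. Ptgs1 was at 0.623 in macrophage-like and 0.4915 in classical monocyte-like cells but at 2.21 in tumour/epithelial-like cells. Hpgd was at 3.98 in macrophage-like and 20.4 in classical monocyte-like cells but at 0.225 in tumour/epithelial-like cells. Cmklr1 was at 0.607 in neutrophil-like and 2.28 in NK/ILC1-like cells. Ggt5 was at 1.64 in macrophage-like and 0.521 in NK/ILC1-like cells, and Mgst2 at 0.3655 in classical monocyte-like and 1.98 in B-like cells.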

How the results depend on the processing

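The counts of the 10 genes past 1.5-fold are small, and several moved. No paired analysis was possible because each group is 1 library, and for the same reason no library could be left out. With clusters weighted alike, neutrophil-like cells had 1 gene higher (Ptger2) and classical monocyte-like cells 3 lower. With no doublets removed, macrophage-like cells had 1 lower. With at least 1000 UMIs and 500 genes per cell, T-like cells had 1 lower. With classes from each cell's own marker score, neutrophil-like cells had 0 lower, macrophage-like and T-like cells 1 lower each and NK/ILC1-like cells 1 higher. With at least 20 UMIs per gene, macrophage-like and classical monocyte-like cells had 1 higher each, and NK/ILC1-like cells 1 higher and 1 lower. Under this limit and the next, Alox5 also entered in classical monocyte-like cells. It was lower there past the fold, at 7.78 CPM (28 UMIs) in PBS and 2.32 CPM (8 UMIs) in AKK. With any UMI in both libraries, macrophage-like and classical monocyte-like cells had 1 higher each, T-like cells 2 higher and 1 lower, NK/ILC1-like cells 1 higher and 1 lower and B-like cells 1 lower. At a 2-fold limit, neutrophil-like and macrophage-like cells had 0 lower. Without the monocyte-like cluster held mostly by AKK, chosen after seeing the data, 2 were lower there; fewer cells entered that count. The cause of the others was not tested. Of 295 log2 ratios of single genes over 8 settings, 228 stayed within the counting interval, 67 moved out of it, 32 changed sign and 0 of the values past the fold changed sign. Depth limits Ptgir most, and no value here holds the spread between animals.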
